A study of Mus musculus with 9 samples.

Results

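The 10 genes described here act in intestinal iron handling: Slc11a2, Cybrd1, Slc40a1, Heph, Tfrc, Fth1, Ftl1, Hmox1, Ireb2 and Aco1. They were chosen by gene name for their roles in iron import, reduction, export, storage and sensing. All 10 were found among the 43629 genes of the deposited count table, and 10 of 10 passed the filter on low counts that left 15486 genes for testing. RNA of small intestine epithelial cells was sequenced as 9 mouse libraries, 3 in each of 3 groups. One group is labelled HIF1α∆IEC and one HIF2α∆IEC, where ∆IEC stands for a deletion in intestinal epithelial cells of the gene for HIF1α (Hif1a) or HIF2α (Epas1). The third group holds littermate controls with floxed HIFα alleles, and their label does not say which of the 2 genes was floxed. All mice are labelled naïve, although the extraction text of the same samples names a collagen-induced arthritis model. The labels name neither the Cre driver nor the age of the mice, and nothing says that each library came from its own animal. The p-values then reflect spread among these 9 libraries alone, part of which may be technical.

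Dietary ferric iron is reduced at the brush border of the duodenum by the reductase made from Cybrd1 and carried into the enterocyte by the divalent metal transporter DMT1, the product of Slc11a2. Iron that is not needed is kept in ferritin, a shell of heavy (Fth1) and light (Ftl1) chains. Other iron leaves across the basolateral membrane through ferroportin (Slc40a1), and hephaestin (Heph) oxidises it as it leaves. HIF2α is known as the factor that raises Slc11a2, Cybrd1 and Slc40a1 in duodenal enterocytes when iron is short. A second layer acts on the messenger RNA: the iron regulatory proteins, encoded by Aco1 and Ireb2, bind a hairpin called the iron responsive element, which blocks translation when it lies in the 5′ untranslated region (UTR) and stabilises the transcript when it lies in the 3′ UTR. Counts of mRNA can show the effect on stability but not the block of translation.

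The hairpins are shown because their place separates an effect on mRNA stability, which counts can show, from a block of translation, which counts cannot. The searched pattern was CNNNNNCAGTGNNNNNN on the transcript strand, with the 5 bases on each side of the CAGTGN loop pairing (G with U allowed). In GENCODE M21 transcripts on GRCm38, the build also called mm10, 160 of 21877 genes (0.731%) held it in a UTR, among them 4 of the 10 members. Capitals mark the 6-base loop, and each stretch is 30 bases written 5′ to 3′ with T for U.
Fth1, 5′ UTR, chr19:9982731-9982760, plus strand: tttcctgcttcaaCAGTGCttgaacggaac
Ftl1, 5′ UTR, chr7:45459779-45459808, minus strand: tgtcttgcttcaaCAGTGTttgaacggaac
Slc40a1, 5′ UTR, chr1:45925465-45925494, minus strand: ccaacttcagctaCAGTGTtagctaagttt
Tfrc, 3′ UTR, chr16:32631218-32631247, plus strand: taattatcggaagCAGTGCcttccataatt
Tfrc, 3′ UTR, chr16:32631597-32631626, plus strand: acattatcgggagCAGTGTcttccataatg
Tfrc, 3′ UTR, chr16:32631662-32631691, plus strand: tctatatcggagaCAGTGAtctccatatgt
Tfrc, 3′ UTR, chr16:32631709-32631738, plus strand: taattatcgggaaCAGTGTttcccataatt
Slc11a2, 3′ UTR, 4 of 5 pairs, chr15:100395153-100395182, minus strand: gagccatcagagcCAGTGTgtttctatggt

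Under this pattern the ferritin chains and ferroportin gave 1 match each near the start of the transcript. Tfrc, the transferrin receptor that brings iron in from the blood side, gave 4 within its 3′ UTR. Hairpins outside the pattern would be missed. The matches of Ftl1, Slc40a1 and Tfrc were each found in 1 annotated transcript. Slc11a2 matched only when 4 of 5 pairs were enough, in 1 annotated transcript. The deposited counts are per gene and cannot separate Slc11a2 transcripts with and without that 3′ end. Hmox1, Cybrd1, Ireb2 and Aco1 had no match under either setting. Heph had 1 match with 4 of 5 pairs, and it lies in the coding sequence.

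Hypoxia-inducible factors bind DNA around a short core, and the 250 bases before each RefSeq start site (GRCm38.p6) were searched for ACGTG and GCGTG on both strands. Of 32851 such windows, 38.6% held at least 1 core, so a match is common. RefSeq windows were at hand for 6 members (Aco1, Cybrd1, Fth1, Ftl1, Ireb2 and Tfrc). At least 1 window held a core for Cybrd1, Fth1, Ftl1 and Tfrc. Fth1 and Tfrc had 2 windows each, and 1 of the 2 Fth1 windows held no core. The 38.6% is a share of windows, while the members are counted here as genes. Stretches of 2 windows are shown, for the reductase that HIF2α is known to raise and for the receptor, with the core in capitals (CACGC is GCGTG read on the other strand).
Cybrd1, chr2:71117873-71117922, plus strand, match at -161 from the start site: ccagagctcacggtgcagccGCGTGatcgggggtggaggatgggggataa
Tfrc, chr16:32608759-32608861, plus strand, matches at -117 and -64: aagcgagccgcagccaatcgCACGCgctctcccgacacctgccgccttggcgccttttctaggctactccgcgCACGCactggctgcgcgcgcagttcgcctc

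Library totals lay between 20959964 and 40391453 counts. Mitochondrial transcripts set 2 libraries apart, HIF1α∆IEC replicate 2 and HIF2α∆IEC replicate 1: they took 12.2% and 10.8% of their counts and 5.04 to 6.74% of the other 7. Of the members, 5 of 10 had their highest value and 2 their lowest in one of these libraries, and values without both are given where they matter. From sex-linked genes all 3 controls were male, while each ∆IEC group had 1 male and 2 females. Hif1a stood at 16.0, 19.9 and 21.1 CPM, the usual count relative to library size with TMM scaling, in the controls and at 22.6, 64.2 and 18.01 in HIF1α∆IEC. Epas1 stood at 32.7, 14.5 and 21.1 CPM in the controls and at 36.1, 11.2 and 11.6 in HIF2α∆IEC. Neither deleted gene was lower with an adjusted p under 0.05 (edgeR, 0.999 and 1); these are counts over the whole gene, the deleted stretch is not named, and so they do not check the labels.

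The labels name the small intestine and not the duodenum, and markers of both ends were present. All 9 listed markers of the proximal intestine were tested, and their summed level was 3403 to 5237 CPM in the controls, 3623 to 6259 in HIF1α∆IEC and 3404 to 9040 in HIF2α∆IEC. All 9 listed distal markers were also tested, at 1735 to 2685, 1926 to 2966 and 2059 to 3101 CPM in the same order. Much of the distal sum was 1 gene, Muc13, at 961, 1371 and 1655 CPM in the controls. The ileal bile acid binding protein gene Fabp6 reached 133 to 402 CPM there. Slc10a2 and Fgf15, also of the distal list, reached at most 3.19 and 2.69 CPM in the controls. The word duodenal therefore describes where these genes are known to work, and not the segment sampled. In bulk samples such as these, fewer cells of a type and less RNA per cell cannot be told apart.

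Levels of different genes were compared as CPM per kilobase of deposited gene length. In the controls Fth1 was highest at 2699 ± 830 CPM per kb (SD, n = 3), 4.05-fold above Ftl1 at 667 ± 126. The cytosolic aconitase and iron regulatory protein gene Aco1 followed at 48.4 ± 4.01, 13.8-fold below Ftl1. Slc11a2 at 14.2 ± 2.88 and Tfrc at 10.9 ± 1.83 overlapped across the 3 libraries, as did Ireb2 at 3.95 ± 0.594 and Heph at 3.68 ± 0.446. Slc40a1 at 1.82 ± 1.09, Hmox1 at 0.851 ± 0.253 and Cybrd1 at 0.705 ± 0.144 closed the order, each overlapping its neighbour. The storage genes thus outran every transporter, and the ferric reductase was the lowest member. The order changed little in the ∆IEC groups: Tfrc and Slc11a2 exchanged places in both, with overlapping libraries, and Cybrd1 and Hmox1 exchanged places in HIF1α∆IEC, also overlapping.

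**Figure D1:**
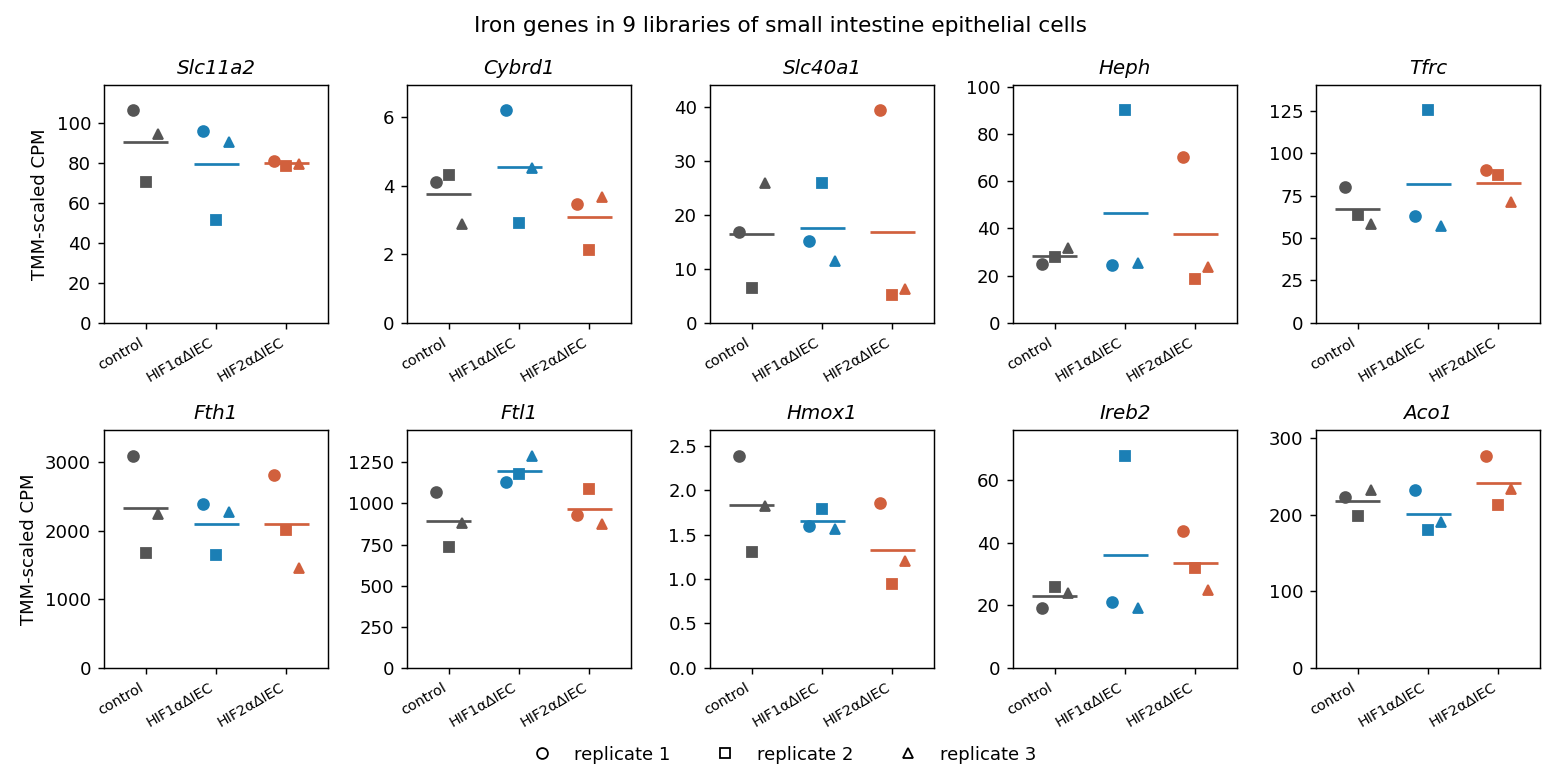
Scaled CPM of each of the 10 members in every library, with marker shape for the replicate, a line for the mean of 3 libraries and a linear axis from 0 in each panel. The groups overlap in every panel except for Ftl1, where the 3 HIF1α∆IEC libraries lie above the 3 controls and above the 3 HIF2α∆IEC libraries; Heph and Ireb2 are highest, in each ∆IEC group, in the library that stood apart.

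None of the 10 members differed between any pair of groups at an adjusted p under 0.05 (edgeR quasi-likelihood test, Benjamini-Hochberg over 15486 genes), where the same rule called 0% of all genes in each comparison. At an unadjusted p under 0.05 the members also gave 0 of 10 in each comparison, beside 3.87% of all genes for HIF1α∆IEC against control, 1.85% for HIF2α∆IEC against control and 6.59% for HIF2α∆IEC against HIF1α∆IEC. DESeq2 called 2, 5 and 15 genes and limma-voom 0, 0 and 0 in these comparisons, with 0 members in each. The median log2 fold change of the members was 0.19, 0.08 and -0.08 in the same order, and that of all genes tested 0.02, 0.02 and 0.01. Members with a positive value numbered 6, 6 and 3 of 10, beside 8161, 8187 and 7985 of the 15486 genes tested. Both comparisons with the controls share those 3 libraries. For Slc11a2, Tfrc, Fth1, Ftl1 and Aco1 the 95% interval of each log2 fold change stayed between -1 and 1 in all 3 comparisons, so changes of more than 2-fold lay outside it. For Cybrd1, Slc40a1, Heph, Hmox1 and Ireb2 it reached past at least 1 of these bounds in at least 1 comparison. For Slc40a1 it reached past both bounds in all 3 comparisons.

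**Figure D2:**
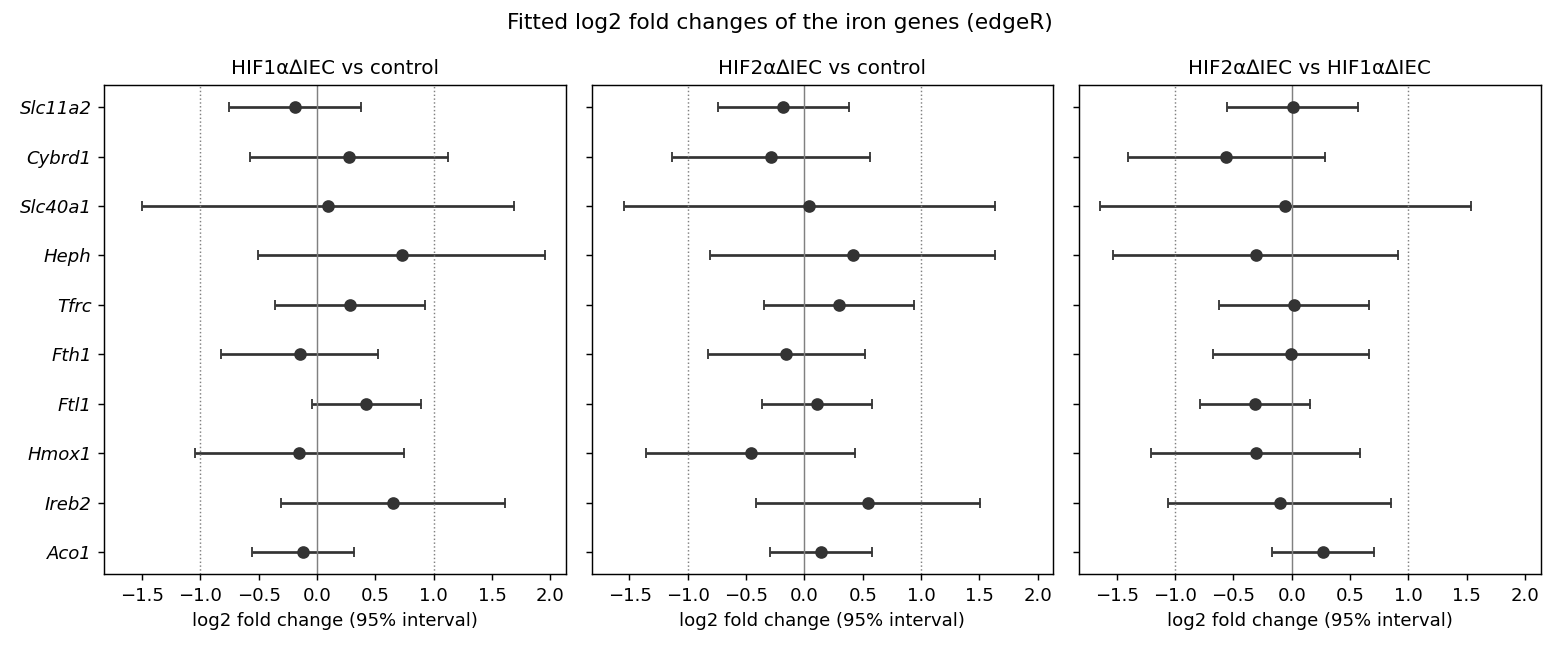
Log2 fold change of each member with its 95% interval in the 3 comparisons, from the edgeR fit of 9 libraries; dotted lines mark -1 and 1. Every interval includes 0, and the intervals of Slc40a1 and Heph are the widest.

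Import into the enterocyte began with Slc11a2, which encodes the apical ferrous iron transporter. It was measured at 106, 70.1 and 94.2 CPM in the controls, at 95.6, 51.2 and 90.4 in HIF1α∆IEC and at 81.0, 78.4 and 79.4 in HIF2α∆IEC, from 969 to 3437 counts per library. The 3 HIF2α∆IEC values lay inside the range of the controls, and the lowest library was HIF1α∆IEC replicate 2. The log2 fold change was -0.19 ± 0.26 (SE, n = 3 per group) for HIF1α∆IEC against control (adjusted p 0.999, edgeR) and -0.18 ± 0.26 for HIF2α∆IEC (adjusted p 1, edgeR). The interval for HIF2α∆IEC ran from -0.74 to 0.38, and the difference between the ∆IEC groups was 0.01 ± 0.26. Without HIF1α∆IEC replicate 2, the value for HIF1α∆IEC against control was 0.02. The predicted gene Gm5475, on the other strand, overlaps Slc11a2 and held 9 to 27 counts.

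Cybrd1, the duodenal cytochrome b reductase, was low in these libraries. It stood at 4.10, 4.31 and 2.88 CPM in the controls, at 6.20, 2.90 and 4.53 in HIF1α∆IEC and at 3.46, 2.11 and 3.67 in HIF2α∆IEC, from 55 to 171 counts per library. All 3 groups overlapped, with the lowest library in HIF2α∆IEC and the highest in HIF1α∆IEC. HIF2α∆IEC differed from control by -0.29 ± 0.39 on the log2 scale, with an interval from -1.13 to 0.56 that holds both a 2-fold lower level and no difference. HIF1α∆IEC differed from control by 0.28 ± 0.39, a value that came to -0.05 without HIF1α∆IEC replicate 1. The direct difference of HIF2α∆IEC from HIF1α∆IEC was -0.56 ± 0.39 (adjusted p 0.86, edgeR), the largest in size of any member in that comparison, and it was -0.83 without both libraries that stood apart.

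Export is the work of ferroportin, the only known cellular iron exporter, and its gene Slc40a1 was the most variable member. It was measured at 16.7, 6.38 and 26.0 CPM in the controls, at 15.1, 26.0 and 11.4 in HIF1α∆IEC and at 39.4, 5.07 and 6.19 in HIF2α∆IEC. The 9 libraries spanned 7.67-fold, and both the highest and the lowest of them belonged to HIF2α∆IEC. With all libraries the log2 difference of HIF2α∆IEC from control was 0.04 ± 0.73, with an interval from -1.55 to 1.63. Without HIF2α∆IEC replicate 1 it was -1.52, and without control replicate 2 it was -0.35, while it was 0.54 without control replicate 3 and 0.56 with a term for sex, none with an adjusted p under 0.05 (edgeR). HIF1α∆IEC differed from control by 0.10 ± 0.73, by -0.33 without its replicate 2, by -0.29 without control replicate 2, by 0.60 without control replicate 3 and by 1.32 with a term for sex, none with an adjusted p under 0.05 (edgeR). Group means therefore say little about this gene, and single libraries decide the direction.

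The libraries low in Slc40a1 were also low in Pdx1, which encodes a transcription factor of the proximal intestine and is one of the listed segment markers. Pdx1 stood at 20.8, 5.28 and 12.7 CPM in the controls, at 14.5, 7.13 and 15.2 in HIF1α∆IEC and at 12.03, 1.54 and 0.347 in HIF2α∆IEC. The 3 libraries lowest in Slc40a1 (HIF2α∆IEC replicates 2 and 3 and control replicate 2) were the 3 lowest in Pdx1. Other genes of the proximal list were mixed. Rbp2 was also lowest in these 3 libraries, at 981 to 1083 CPM. Gata4 did not follow, at 207 CPM in HIF2α∆IEC replicate 1, 250 in its replicate 2 and 237 in control replicate 2. Its lowest value, 166 CPM, was in HIF1α∆IEC replicate 2. Fabp6, of the distal list, stood at 146, 133 and 402 CPM in the controls, at 307, 838 and 403 in HIF1α∆IEC and at 396, 629 and 701 in HIF2α∆IEC, so control replicate 2 was low in both segment genes. Over the 9 proximal markers the mean log2 difference from the control mean was -0.36 in control replicate 2, -0.41 and -0.76 in HIF2α∆IEC replicates 2 and 3, and 0.76 in HIF2α∆IEC replicate 1, which had the highest Slc40a1. The enterocyte list, 10 of 10 tested, was also highest in that library, at 24000 CPM summed beside 10110 to 14890 in the controls, a mean log2 difference of 1.125 from the control mean. HIF1α∆IEC replicate 2 broke this order, with -0.56 for the list and a high Slc40a1. These pairings were noticed after the values were seen, and whether the segment sampled plays a part in the Slc40a1 levels was not tested.

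**Figure D3:**
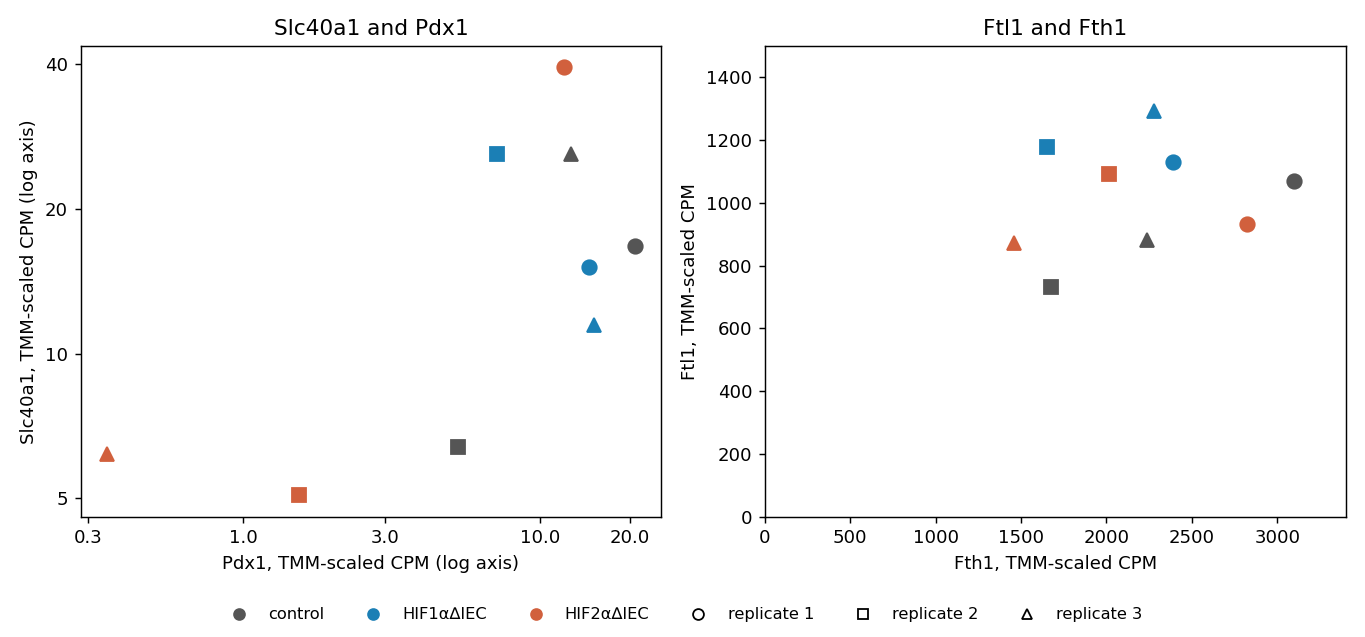
Left, Slc40a1 against Pdx1 as CPM on log axes; right, Ftl1 against Fth1 as CPM; each point is 1 of 9 libraries, coloured by group. On the left the 3 libraries lowest in Slc40a1, from 5.07 to 6.38 CPM, are also lowest in Pdx1; on the right the HIF1α∆IEC libraries hold more Ftl1 at a like amount of Fth1 than the controls.

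Heph encodes hephaestin, the copper ferroxidase that works with ferroportin. It stood at 25.0, 27.8 and 31.8 CPM in the controls, at 24.5, 90.1 and 25.5 in HIF1α∆IEC and at 70.5, 18.7 and 23.7 in HIF2α∆IEC. The controls lay close together, and each ∆IEC group had 1 high library, in each case the one that stood apart. HIF1α∆IEC differed from control by 0.73 ± 0.56 and HIF2α∆IEC by 0.42 ± 0.56 on the log2 scale. Both turned negative without the high library of the group, to -0.21 without HIF1α∆IEC replicate 2 and to -0.39 without HIF2α∆IEC replicate 1. Among the other 7 libraries Heph ran from 18.7 to 31.8 CPM, a 1.70-fold span in place of 4.81-fold. Rpl17-ps8, which overlaps Heph, held 18 to 72 counts, beside 512 to 2238 for Heph.

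Tfrc encodes the receptor that takes up transferrin-bound iron, mainly at the basolateral side and in dividing crypt cells. It stood at 80.1, 63.4 and 58.5 CPM in the controls, at 63.2, 125 and 56.9 in HIF1α∆IEC and at 90.0, 87.0 and 71.3 in HIF2α∆IEC. HIF2α∆IEC was on average 1.23-fold higher than control, but its lowest library lay below the highest control. The log2 differences from control were 0.30 ± 0.29 for HIF2α∆IEC and 0.28 ± 0.29 for HIF1α∆IEC. The latter was -0.20 without HIF1α∆IEC replicate 2, while the former ran from 0.21 to 0.43 when each library was left out in turn. Summed proliferation markers, 10 of 10 tested, lay at 807.8 to 921.8 CPM in the controls. They lay at 785.7 to 1024 in HIF1α∆IEC and at 701.8 to 1024 in HIF2α∆IEC, so these sums overlapped too. In HIF1α∆IEC replicate 2, the library highest in Tfrc, genes of this list went both ways. Mki67 and Top2a were highest of all libraries there, at 204 and 206 CPM, and Pcna and Mcm5 lowest, at 101 and 73.0.

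Storage rested on the ferritin genes, whose joint share was 0.250 to 0.398% of all counts in a library. Fth1, the chain with ferroxidase activity, stood at 3100.0, 1673 and 2240.2 CPM in the controls, at 2387, 1653 and 2280.0 in HIF1α∆IEC and at 2822, 2015 and 1461 in HIF2α∆IEC. Each group spanned much of the range of the others. The log2 differences from control were -0.15 ± 0.31 for HIF1α∆IEC and -0.16 ± 0.31 for HIF2α∆IEC, and that between the ∆IEC groups -0.005 ± 0.31. Both differences from control turned positive without control replicate 1, to 0.07 and 0.08, and that for HIF2α∆IEC also without HIF2α∆IEC replicate 3, to 0.05.

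Ftl1, the light chain that helps the mineral core form, was the only member whose groups did not overlap. It stood at 1069, 733 and 881 CPM in the controls, at 1129, 1177 and 1291 in HIF1α∆IEC and at 932, 1091 and 873 in HIF2α∆IEC. Every HIF1α∆IEC library lay above every control and above every HIF2α∆IEC library, while HIF2α∆IEC overlapped the controls. The log2 difference of HIF1α∆IEC from control was 0.42 ± 0.21, a 1.34-fold ratio whose 95% interval ran from 0.968-fold to 1.86-fold (unadjusted p 0.0733 and adjusted p 0.999, edgeR). An exact two-sided permutation test gave p = 0.1, the smallest that 3 against 3 libraries can reach. Of all genes tested in this comparison, 4.60% were higher and 3.72% lower with no overlap, 8.32% in all, beside 1 higher and 0 lower of the 10 members. In HIF2α∆IEC against control 0 of 10 members did not overlap, beside 3.03% of all genes higher and 2.51% lower, 5.55% in all. HIF2α∆IEC was lower than HIF1α∆IEC by -0.31 ± 0.21 (exact permutation p = 0.1; adjusted p 0.859, edgeR), where 6.08% of all genes were lower and 4.37% higher with no overlap, 10.4% in all. Leaving out each library in turn kept the difference from control between 0.30 and 0.53.

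The number of Fth1 counts for each Ftl1 count does not depend on the scaling of the libraries. It was 2.901, 2.283 and 2.543 in the controls, 2.114, 1.404 and 1.766 in HIF1α∆IEC and 3.027, 1.848 and 1.674 in HIF2α∆IEC. All HIF1α∆IEC libraries were below all controls, and HIF2α∆IEC overlapped both groups. On the log2 scale the ratio differed from control by -0.56 in HIF1α∆IEC (exact permutation p = 0.1, two-sided, 3 against 3) and by -0.28 in HIF2α∆IEC (exact permutation p = 0.4). This ratio was chosen after the values were seen. The annotated copies Ftl2, Fth-ps2 and Fthl17 held at most 15 counts in any library, but how reads that fit several copies were counted is not stated in the labels, so the level of both chains is uncertain to that extent.

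Macrophages handle much iron and express ferritin, ferroportin and Hmox1, so their markers are given beside these genes. Of 10 listed markers 7 were tested. Their summed level was 12.7 to 19.18 CPM in the controls, 22.65 to 53.06 in HIF1α∆IEC and 18.47 to 49.02 in HIF2α∆IEC. The markers Cd163 and Vsig4 were each at 0 in 8 libraries. Csf1r, C1qa, C1qb and C1qc were higher in every HIF1α∆IEC library than in any control, while Cd68, Mrc1 and Lyz2 overlapped. C1qb reached at most 1.71 CPM among controls, beside 2.65, 9.50 and 11.2 for HIF1α∆IEC. For C1qc the highest control was also 1.71, beside 3.08, 9.03 and 8.34. DESeq2 called these 2 genes alone for HIF1α∆IEC against control, and edgeR called 0. The summed list lay above the controls in all HIF1α∆IEC libraries and overlapped the controls in HIF2α∆IEC, as Ftl1 did. Single libraries were mixed. HIF1α∆IEC replicate 3 was highest in both, at 53.06 CPM for the list and 1291 for Ftl1. HIF2α∆IEC replicate 1 had 49.02 for the list and 932 for Ftl1, and control replicate 1 had 12.7 and 1069. Fth1 and Hmox1 each differed from control by -0.15 on the log2 scale in HIF1α∆IEC. On the other measure, the mean log2 difference, the list stood at 1.428, 0.897 and 0.221 in HIF2α∆IEC. The highest control was at 0.216 on that measure. Of 8 erythroid genes 6 were tested, at 2.731 to 6.949 CPM in the controls, 3.551 to 26.29 in HIF1α∆IEC and 13.22 to 119 in HIF2α∆IEC. T cell markers, 10 of 10 tested, lay at 280.7 to 422.5, 353.5 to 549.4 and 216.6 to 2669 CPM. The 2669 and the erythroid 119 both belonged to HIF2α∆IEC replicate 1, 1 of the libraries that stood apart. HIF2α∆IEC replicates 2 and 3 held 216.6 and 237 CPM of T cell markers, and 18.83 and 13.22 of erythroid genes. Epithelial markers, 9 of 9 tested, summed to 13030 to 18320 CPM over all 9 libraries. The part of other cells in the members' values was not tested.

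**Figure D4:**
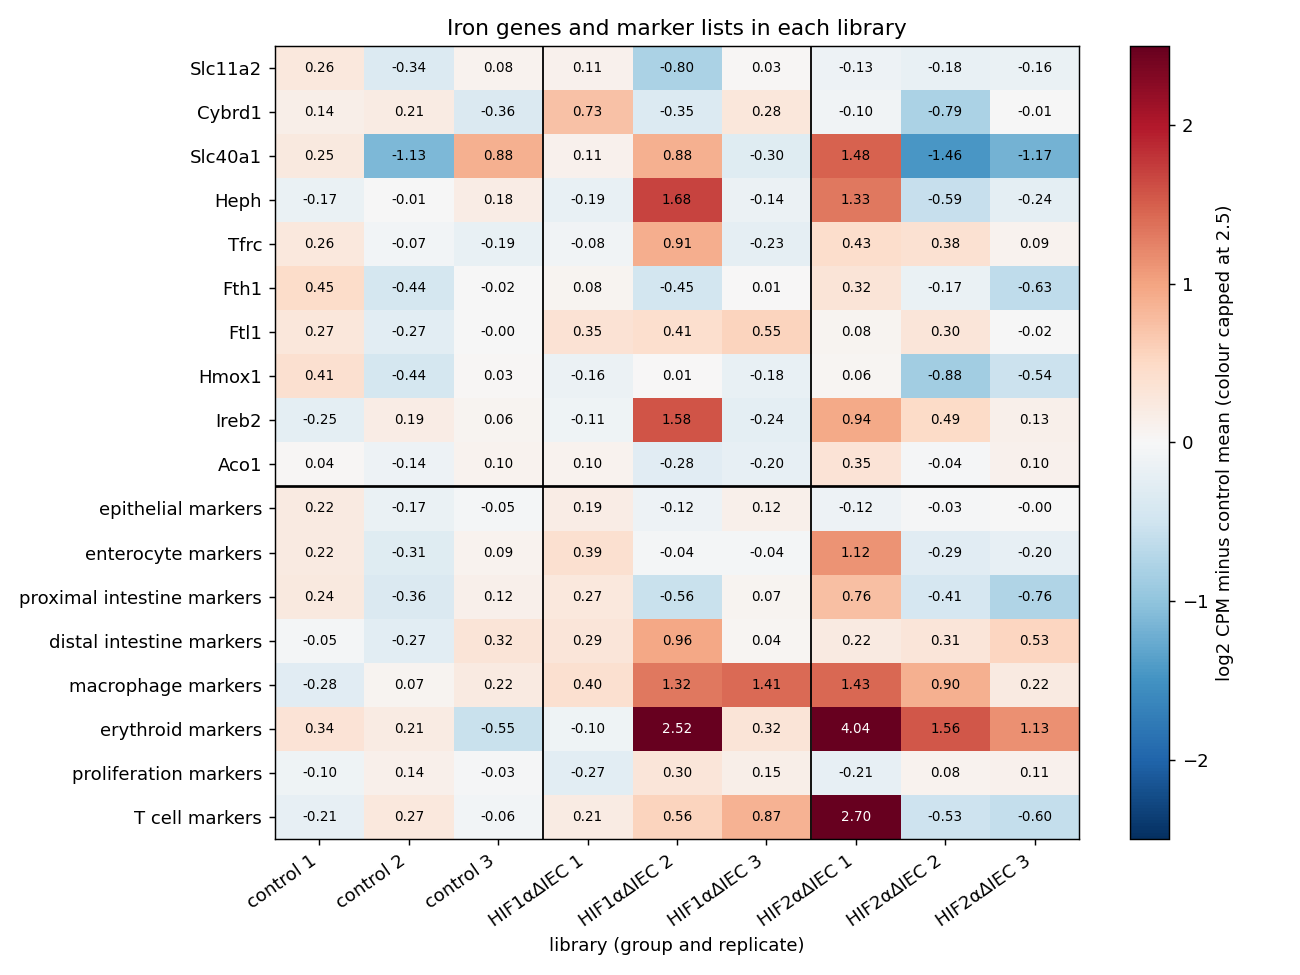
Log2 CPM of the 10 members, minus the control mean, and the mean of the same difference over the tested genes of 8 marker lists below them, in each of 9 libraries, with the colour capped at 2.5. Heph (1.68) and Ireb2 (1.58) are highest in HIF1α∆IEC replicate 2, Slc40a1 (1.48) in HIF2α∆IEC replicate 1, and the macrophage list is above the control mean in all libraries of both ∆IEC groups.

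Hmox1, the inducible heme oxygenase that frees iron from heme, was near the limit of these data at 32 to 59 counts per library. It stood at 2.39, 1.30 and 1.82 CPM in the controls, at 1.59, 1.79 and 1.57 in HIF1α∆IEC and at 1.86, 0.940 and 1.20 in HIF2α∆IEC. The groups overlapped. HIF2α∆IEC differed from control by -0.46 ± 0.41 on the log2 scale, with an interval from -1.36 to 0.43, and HIF1α∆IEC by -0.15 ± 0.41, or 0.04 without control replicate 1. The interval for HIF1α∆IEC ran from -1.05 to 0.74. At this depth both intervals held a 2-fold lower level, and neither held a 2-fold higher one.

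The sensors split by their spread. Ireb2, which encodes the iron regulatory protein that is degraded when iron is plentiful, stood at 19.1, 25.9 and 23.8 CPM in the controls, at 21.1, 67.9 and 19.3 in HIF1α∆IEC and at 43.7, 31.9 and 24.9 in HIF2α∆IEC. The highest library of each ∆IEC group was again the one that stood apart. HIF1α∆IEC differed from control by 0.65 ± 0.44, and by -0.22 without its replicate 2. HIF2α∆IEC differed by 0.55 ± 0.44, and by 0.32 without its replicate 1.

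Aco1, whose product is an enzyme with an iron-sulphur cluster and an RNA-binding regulator without it, was the steadiest member. It stood at 223, 198 and 232 CPM in the controls, at 232, 179 and 190 in HIF1α∆IEC and at 277, 212 and 234 in HIF2α∆IEC, a 1.54-fold span. The differences from control were -0.12 ± 0.20 for HIF1α∆IEC and 0.14 ± 0.20 for HIF2α∆IEC on the log2 scale, with all groups overlapping.

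**Figure D5:**
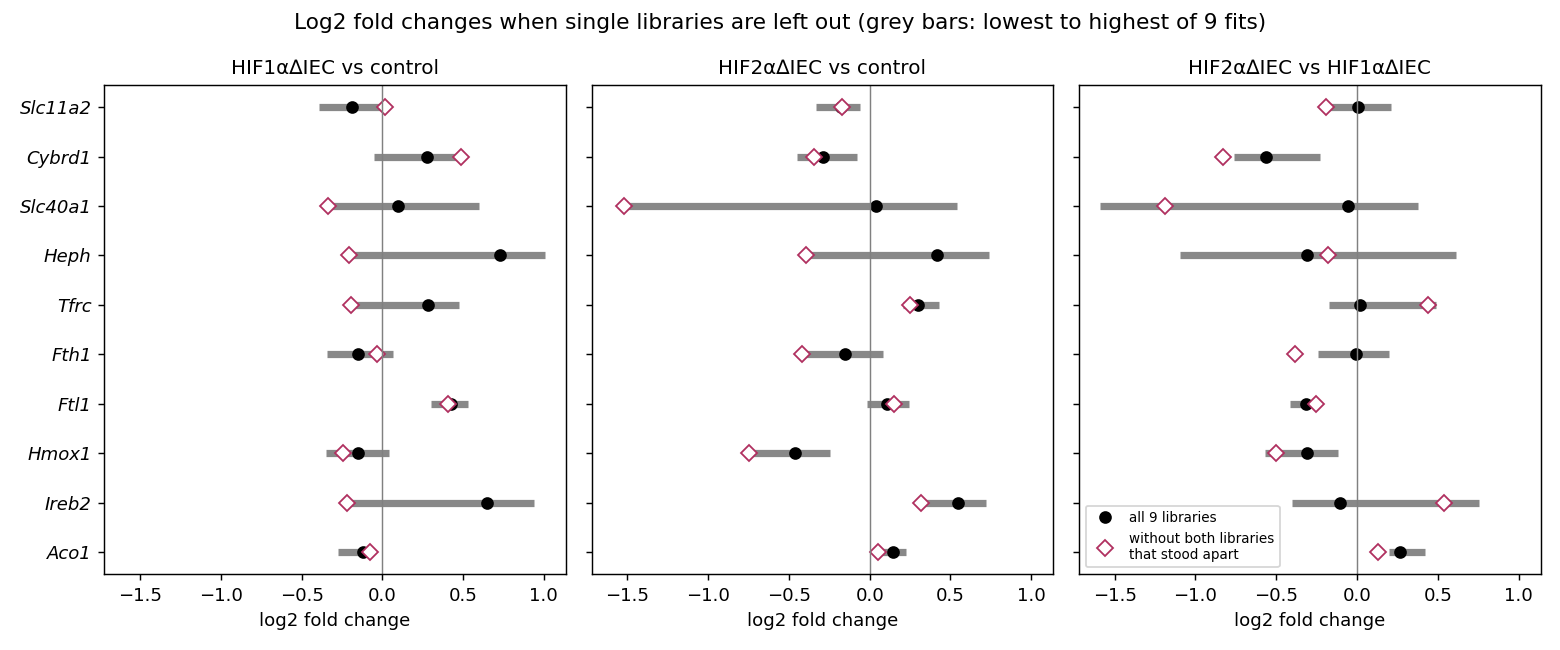
For each member and comparison, the grey bar spans the lowest to highest log2 fold change over 9 fits that each leave out 1 library; the black point is the fit of all 9 and the diamond the fit without both libraries that stood apart. The bar of Slc40a1 for HIF2α∆IEC against control runs from -1.52 to 0.54, while that of Ftl1 for HIF1α∆IEC against control stays between 0.30 and 0.53.

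Across the 9 libraries the members did not move as one group. Pearson's r of log2 CPM is given as a description over 9 libraries, which differ in depth and include the 2 that stood apart. Slc11a2 and Tfrc had r = -0.67, and -0.06 without those 2. Slc11a2 and Fth1 had r = 0.68, and 0.87 without them, and Slc40a1 and Hmox1 had 0.81 and 0.86. Slc11a2 and Ireb2 had -0.85 and -0.74. Over all tested genes, the patterns most like that of Slc11a2 were those of Gm11695 (r = 0.977), Bpnt1 (0.973) and Wfs1 (0.971). Those most like Cybrd1 were Ttc17 (0.874), Snord83b (0.862) and Epb4.1 (0.854), and those most like Slc40a1 were Papss2 (0.938), Ugt2b38 (0.933) and Cyp2c44 (0.922). Tfrc was most like C030039L03Rik (0.950), Rock1 (0.931) and Mrc1 (0.925). Without the 2 libraries that stood apart these values were 0.891, 0.794 and 0.864. Mrc1, a listed macrophage marker, was very low at 0.107 to 0.686 CPM. Fth1 was most like Gpr162 (0.953), Gm12286 (0.948) and Pkm (0.942).

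A wider list of 55 iron genes put the members in context. Of these 52 were in the table and 44 were tested, and 0 were called by edgeR in each comparison, as for all genes. At an unadjusted p under 0.05 there were 2, 0 and 3 of 44, in the order given above, beside 3.87%, 1.85% and 6.59% of all genes, and the median log2 fold changes were 0.01, 0.01 and -0.01. Of the 44 tested genes 23, 22 and 21 had positive values, beside 8161, 8187 and 7985 of the 15486 genes tested. Groups that did not overlap were higher for 2, 0 and 1 of 44 genes, beside 4.60%, 3.03% and 4.37% of all genes, and lower for 0, 0 and 4 of 44, beside 3.72%, 2.51% and 6.08%. Genes of high level in the list included the iron chaperone genes Pcbp1 at 369 to 630 CPM and Pcbp2 at 160 to 269 CPM, and Alas1, for the first step of heme synthesis, at 147 to 240 CPM.

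The smallest unadjusted p-values of the wider list belonged to Id1, Blvrb, Fdx1 and Glrx5. Id1, a target of the BMP signal that also drives hepcidin in liver, stood at 138, 81.3 and 106 CPM in the controls, at 162, 214 and 188 in HIF1α∆IEC and at 102, 123 and 107 in HIF2α∆IEC. The HIF1α∆IEC libraries lay above both other groups, by 0.79 ± 0.23 over control on the log2 scale (unadjusted p 0.00519 and adjusted p 0.999, edgeR). Blvrb, a biliverdin reductase of heme breakdown, stood at 48.00, 29.4 and 28.4 CPM in the controls, at 48.02, 77.7 and 56.9 in HIF1α∆IEC and at 24.7, 44.1 and 29.5 in HIF2α∆IEC. HIF1α∆IEC was again above both groups, by 0.79 ± 0.30 over control (unadjusted p 0.0241, edgeR), although the nearest 2 libraries were almost equal. Fdx1, a ferredoxin, differed between HIF2α∆IEC and HIF1α∆IEC by -0.67 ± 0.29, and Glrx5, which passes on iron-sulphur clusters, by -0.44 ± 0.24. None of these 4 passed the adjusted test in any comparison.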

How the data were processed

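Libraries of small intestine epithelial RNA were made with the TruSeq kit of Illumina, per the labels' protocols. The authors deposited raw counts per gene and a gene length in bases, and neither was altered. The submitters' processing notes list CASAVA, Bowtie 0.12.2 and mm10. Which program, annotation and strand setting gave the counts is not given in the sources used here. In R 4.3.3 with edgeR 4.0.16, filterByExpr kept 15486 of 43629 genes and TMM set the scaling. The quasi-likelihood test used all 9 libraries and the group as the only term, which left 6 residual degrees of freedom. Its p-values are two-sided, with Benjamini-Hochberg adjustment and a threshold of 0.05. The common biological coefficient of variation was 0.353. Log2 CPM used a prior count of 2. Errors of CPM are SDs and those of fold changes SEs. Exact permutation tests compared 3 with 3 log2 values.

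Alternatives were DESeq2 1.42.0, limma-voom (limma 3.58.1), other scalings and filters, a sex term, the replicate number as a block, and leaving out libraries. The members and lists were chosen with earlier results of these data known. Named by rule were the members, Hif1a and Epas1, 8 genes of the wider list (4 by mean CPM, of which 1 is not reported here, and 4 by smallest unadjusted p) and the 3 genes most like each of 5 members. Pdx1, Fabp6, the ferritin ratio and the single macrophage markers other than Mrc1 were named after their values were seen. So were the other single segment and proliferation markers.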

Additional observations from a re-analysis of the deposited data

How the results depend on the processing

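The number of members called stayed at 0 in every fit. The number of all genes called, 0 in each comparison, was for HIF1α∆IEC against control 2 with DESeq2, 1 without a count filter and 1 with the replicate number as a block. For HIF2α∆IEC against control it was 5 with DESeq2, 5 without a filter, 2 with the replicate block and 1 without both libraries that stood apart. Between the ∆IEC groups it was 15 with DESeq2 and 10 without a filter. With 1 library left out it ran from 0 to 1.

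Some log2 fold changes changed sign, none with an adjusted p under 0.05, and the causes were not tested. For HIF1α∆IEC against control, leaving out both libraries that stood apart gave 0.015 for Slc11a2, -0.334 for Slc40a1, -0.209 for Heph, -0.195 for Tfrc and -0.22 for Ireb2, and a sex term gave 0.177 for Fth1, 0.112 for Hmox1 and 0.087 for Aco1. For HIF2α∆IEC against control, a sex term gave 0.048 for Cybrd1 and 0.139 for Fth1, Slc40a1 was -0.437 with limma-voom, -0.336 with the replicate block and -1.521 without both libraries, and Heph was -0.392 without both. For HIF2α∆IEC against HIF1α∆IEC, leaving out both gave -0.189 for Slc11a2 and 0.539 for Ireb2, Fth1 was 0.058 without a filter and 0.012 with a CPM filter, and Ireb2 was 0.16 with limma-voom and 0.084 with the block. The sex term rests on the ∆IEC groups, since all controls were male.

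Leaving out each library in turn gave these ranges for HIF1α∆IEC against control: Slc11a2 -0.39 to 0.015, Cybrd1 -0.053 to 0.484, Slc40a1 -0.334 to 0.599, Heph -0.209 to 1.006, Tfrc -0.195 to 0.473, Fth1 -0.342 to 0.068, Hmox1 -0.349 to 0.042 and Ireb2 -0.22 to 0.938. For HIF2α∆IEC against control they were Slc40a1 -1.522 to 0.541, Heph -0.392 to 0.737, Fth1 -0.416 to 0.081 and Ftl1 -0.015 to 0.245. Between the ∆IEC groups they were Slc11a2 -0.193 to 0.211, Slc40a1 -1.591 to 0.375, Heph -1.094 to 0.61, Tfrc -0.176 to 0.49, Fth1 -0.241 to 0.197 and Ireb2 -0.4 to 0.757. Same-numbered libraries did not deviate together: 3 of 9 pairs had a correlation over 0.1 (range -0.37 to 0.237), and 4 of 9 libraries correlated best with their own number, so the replicate block is an alternative and not a pairing. Low counts limit Cybrd1 and Hmox1.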

Other observations

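Of the wider iron list, the 14 genes of mitochondrial iron use were all tested, and 12 of 14 had a lower value in HIF2α∆IEC than in HIF1α∆IEC, with a median log2 difference of -0.21 and a range from -0.67 to 0.47. Against the controls 10 of 14 were positive in HIF1α∆IEC (median 0.15) and 10 of 14 negative in HIF2α∆IEC (median -0.10). Of the 15486 genes tested, 7501 were lower in HIF2α∆IEC than in HIF1α∆IEC. Against the controls 8161 of them were positive in HIF1α∆IEC and 7299 negative in HIF2α∆IEC. By edgeR 0 of 14 had an adjusted p under 0.05, and 1 of 14, Fdx1, had an unadjusted p under 0.05 in the direct comparison (0.0413), where 6.59% of all genes did. The groups did not overlap for 2 of 14, both lower, where 6.08% of all genes were lower with no overlap. Fdx1 stood at 63.9, 30.7 and 30.5 CPM in the controls, at 57.3, 57.7 and 58.4 in HIF1α∆IEC and at 35.7, 42.7 and 30.3 in HIF2α∆IEC. Control replicate 1 was thus above every ∆IEC library and the other 2 controls near the lowest HIF2α∆IEC library. This group was singled out after its values were seen.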
